A study of Rattus norvegicus with 12 samples.

Results

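The vitamin D receptor gene Vdr and 4 genes linked to its action, Rxra, Cyp24a1, Trpv6 and Calb1, were followed in pancreatic islets of rat offspring. They were taken by symbol from the deposited table, as 5 of its 17407 gene entries, and 4 of the 5 reached the mean level needed for a test, against 12339 entries in all. Vdr and Trpv6 were chosen by their measured values, which were lower in offspring of dams with gestational diabetes mellitus (GDM), so their differences by dam are given as descriptions with no test. The other 3 genes were added to them for their place in the same pathway, with earlier results of these data known.

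The receptor is a nuclear receptor that binds the active form of vitamin D. It pairs with a retinoid X receptor, of which Rxra encodes the alpha form, and the pair binds direct repeats of a 6-base sequence with 3 bases between them. Among its best known targets are Cyp24a1, the enzyme that breaks down active vitamin D and so limits the signal, and the genes that carry calcium across epithelia: Trpv6, a calcium channel of the apical membrane, and Calb1, the calcium-binding protein calbindin-D28k. In islets, beta cells are known to express the receptor, and calbindin-D28k is known as a calcium buffer of islet cells.

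All animals were Sprague-Dawley rats, and all islets were taken at 15 weeks of age. GDM was induced in dams by an HFS diet (rich in fat, at 45%, and in sucrose), while Lean dams ate an LF diet (low in fat, at 10%), with 6 dams a diet. Dams ate these from 6 weeks before mating to the end of suckling, and pups then ate HFS or LF diet for 12 weeks. This gave 4 groups of 3 libraries: GDM-HFS, GDM-LF, Lean-HFS and Lean-LF, each named by the dam and then by the diet of the pup. The diet of the dam and its diabetes cannot be told apart. The sources used here do not give which offspring shared a dam or whether animals were pooled, so the spread behind each p-value is that between these libraries and may be partly technical.

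The libraries held 11469290 to 27492858 reads over genes, and the values below are reads scaled to a common depth (scaled values), in which 1 read is worth 0.166 to 0.577. They are not divided by transcript length. Several features of the libraries moved with the dam, and their part in the results was not tested except where a value without them is given. GDM-HFS 3, GDM-LF 1 and GDM-LF 2 carry the letter K in their titles, of no stated meaning, and the other 9 carry G, so the letter occurs with K among offspring of GDM dams only. Ribosomal RNA took 1.84% to 8.55% of the reads in the GDM libraries and 1.84% to 39.0% in the Lean libraries. Short transcripts (under 1000 bases) stood higher against long ones (over 4000 bases) in GDM libraries, where the difference of their median log2 deviations was -0.067 to 0.74, than in Lean libraries, where it was -0.73 to -0.079. All 9 beta cell markers with an entry were present in every library, with summed scaled values of 1239945 to 2257397 in GDM and 1306027 to 1582898 in Lean libraries. By dam 6 of these 9 had negative log2 differences, and 7 of 9 on LF diet (median -0.52). Their mean log2 level was lowest in the K libraries GDM-LF 1 and 2, at 11.96 and 11.67, against 12.08 to 12.61 in the other 10. DESeq2 called 4 of the 9 by dam, in a fit that called 20.1% of all genes. All 12 acinar markers had positive log2 differences, with sums of 34385 to 584379 in GDM and 24253 to 207766 in Lean libraries, and 7 of 8 endothelial markers had negative ones, with sums of 443 to 1032 in GDM and 669 to 1490 in Lean libraries. For duct markers 5 of 7 differences were positive, with sums of 308 to 790 in GDM and 190 to 400 in Lean libraries. All 3 delta and PP cell markers had positive ones, with sums of 7648 to 28408 in GDM and 2932 to 20665 in Lean libraries. By dam limma called the acinar marker Try4, the duct marker Car2 and the PP cell marker Ppy higher, and the endothelial markers Kdr and Eng and the beta cell marker Nkx6-1 lower, at an adjusted p under 0.05, as it did 11.6% of all tested genes. None of the acinar, endothelial, delta and PP cell markers was at 0 in any library, and of the duct markers Muc1 was at 0 in 1 library. In bulk islet RNA, fewer cells of a type and less RNA per cell cannot be told apart.

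The 2 genes that stood lower after GDM, Vdr and Trpv6, are shown by their promoter letters, since a receptor can act on its own gene and on Trpv6. The sequences come from RefSeq, build GRCr8, and run from 250 bases before to 50 bases after the gene's start, 5′ to 3′. Capitals mark the 6-base receptor sequences AGGTCA (or AGTTCA, or GGGTCA, or GGTTCA) and the GC box GGGCGG, on either strand. Vdr lies at chr7:130916708-130917007 on the minus strand and Trpv6 at chr4:71489618-71489917 on the minus strand.
Vdr promoter: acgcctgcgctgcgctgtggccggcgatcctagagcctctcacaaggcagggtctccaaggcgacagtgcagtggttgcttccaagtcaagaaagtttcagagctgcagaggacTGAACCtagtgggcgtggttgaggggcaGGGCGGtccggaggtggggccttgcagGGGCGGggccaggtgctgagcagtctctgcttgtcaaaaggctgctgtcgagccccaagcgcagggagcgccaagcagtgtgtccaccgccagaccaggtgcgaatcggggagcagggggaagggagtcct
Trpv6 promoter: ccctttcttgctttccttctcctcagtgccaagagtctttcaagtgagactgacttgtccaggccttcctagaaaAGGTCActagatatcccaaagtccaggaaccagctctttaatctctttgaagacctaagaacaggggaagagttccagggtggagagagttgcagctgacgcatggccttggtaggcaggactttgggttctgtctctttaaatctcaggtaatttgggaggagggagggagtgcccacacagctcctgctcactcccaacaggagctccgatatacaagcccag
The Vdr window had 64.3% G and C and held 2 GC boxes, at 108 and 81 bases before the start, a sequence that 33.1% of 33469 rat promoter windows of this length held. It also held 1 receptor sequence, GGTTCA read on the other strand (TGAACC as printed), 136 bases before the start; 11.7% of the windows held GGTTCA on either strand. The Trpv6 window had 50.7% G and C, no GC box and 1 receptor sequence, AGGTCA, 175 bases before the start, as 16.2% of the windows did. Any of the 4 receptor sequences occurred in 44.4% of all windows. The window of Rxra, the third of the 5 genes that was matched, had 84.7% G and C, 5 GC boxes and no receptor sequence. A direct repeat of these sequences with 3 bases between them was in none of the 3 windows, and in 0.0986% of all windows. These are matches of letters within 300 bases and say nothing of whether a factor binds there. In human TRPV6 the described receptor elements lie further upstream than such a window.

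Vdr, on rn5 at chromosome 7, bases 139536241 to 139585928, was well expressed. Per kilobase of transcript its level averaged 72.5 ± 47.8 (SD, n = 12), above those of 68.3% of the tested genes. Rxra followed at 71.0 ± 19.5 and Calb1 at 13.2 ± 6.57 scaled value per kilobase. Trpv6 stood at 1.01 ± 0.762, above 4.98% of the tested genes, and Cyp24a1 at 0.154 ± 0.252 scaled value per kilobase. By mean, Vdr stood below Rxra in GDM libraries, at 39.9 against 66.9 per kilobase, and above it in Lean libraries, at 105 against 75.1. Lean-HFS 2 and Lean-LF 3 had Vdr under Rxra, at 57.3 against 60.6 and 69.8 against 73.7. The change of order by dam carries the difference for which Vdr was chosen. The channel and the degrading enzyme were near the low end of what was measured.

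The scaled value of Vdr was 78.2, 106 and 56.5 in GDM-HFS libraries 1 to 3, against 207, 116 and 159 in Lean-HFS libraries 1 to 3. All 3 GDM-HFS libraries lay under all 3 Lean-HFS libraries, as did those of 12.1% of the tested genes. On LF diet, Vdr was at 54.6, 49.1 and 142 in GDM-LF libraries 1 to 3, against 349, 306 and 142 in Lean-LF libraries 1 to 3. Here the third library of each group met at the same level, so the groups overlapped. The reads behind these values were 98 to 492 per GDM library and 292 to 1310 per Lean library. Group means were 80.2 ± 24.7 in GDM-HFS, 82.0 ± 52.2 in GDM-LF, 161 ± 45.4 in Lean-HFS and 266 ± 109 in Lean-LF libraries (SD, n = 3 each). Ordered by mean, each group overlapped with its neighbour: GDM-HFS with GDM-LF, GDM-LF with Lean-HFS, and Lean-HFS with Lean-LF.

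Over both diets Vdr averaged 81.1 ± 36.5 in GDM and 213 ± 94.3 in Lean libraries (SD, n = 6 each). On the log2(scaled value + 1) scale the difference was -1.38 ± 0.295 (SE), or 2.60-fold lower, and it was -1.002 on HFS and -1.76 on LF diet. The 3 K libraries held the 3 lowest Vdr values, 49.1 to 56.5. Among G libraries alone Vdr averaged 109 ± 32.1 in GDM (78.2 to 142, n = 3) and 213 ± 94.3 in Lean (116 to 349, n = 6), and the ranges overlapped. Without the K libraries GDM-LF 3 stood alone in its group, so that fit cannot show that the diets were alike. The log2 difference was then -0.79, with -0.78 on HFS and -0.80 on LF diet. With the level of the ribosomal RNA entry Rn45s as a covariate it was -0.62, and on HFS diet it was then 0.24, in the other direction. With the mean acinar level as a covariate it was -1.19, and with each library's trend on transcript length removed it was -1.38.

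**Figure D1:**
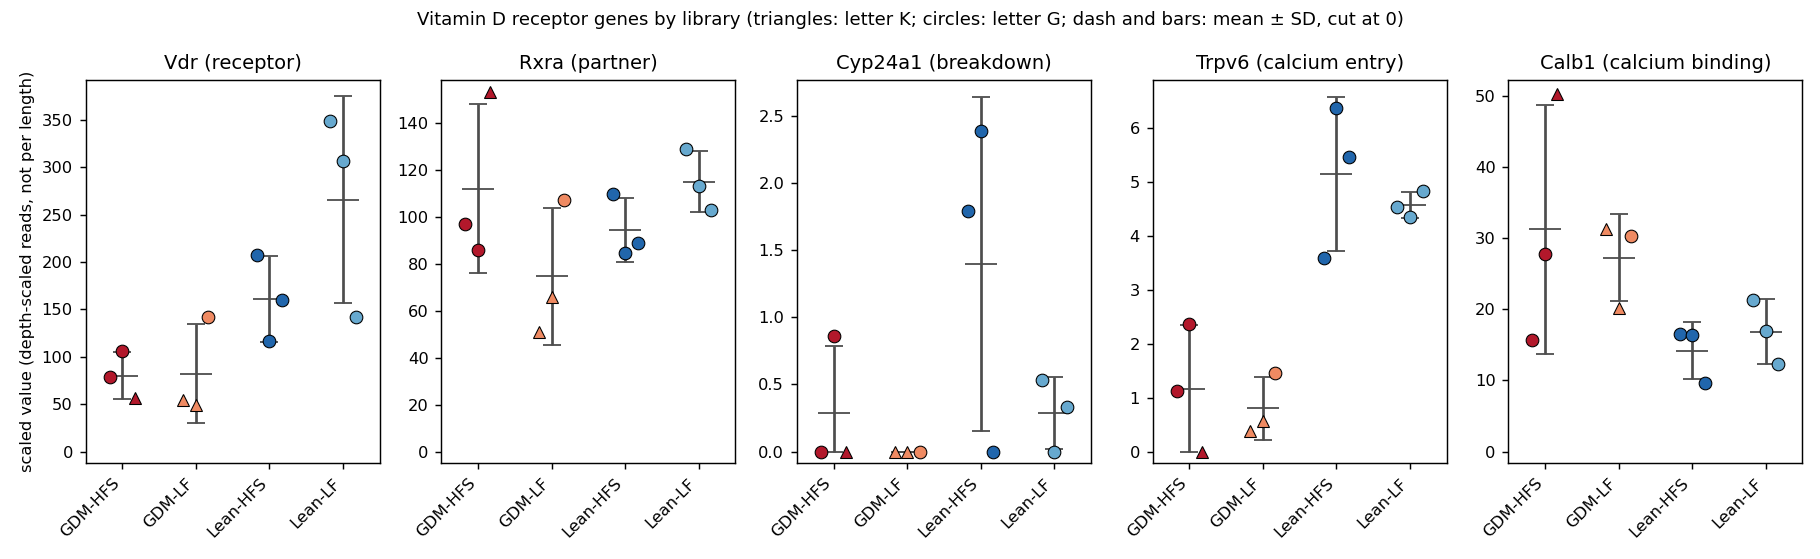
Scaled values (depth-scaled reads, linear axis, not per length) of the 5 genes in the 12 libraries, by group, with the mean ± SD of 3 libraries (lower bars end at 0); triangles are libraries with the letter K and circles those with G. Trpv6 is at 2.36 or under in every GDM library and at 3.59 or above in every Lean library, while for Vdr the third GDM-LF library sits level with the third Lean-LF library at 142.

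Trpv6, on rn5 at chromosome 4, bases 135705696 to 135721353, was weakly expressed, with 116 reads over the 12 libraries. Its scaled value was 1.12, 2.36 and 0 in GDM-HFS libraries 1 to 3 (5, 11 and 0 reads), against 3.59, 6.37 and 5.46 in Lean-HFS libraries 1 to 3 (8, 16 and 12 reads). It was 0.376, 0.561 and 1.46 in GDM-LF libraries 1 to 3 (1, 2 and 5 reads), against 4.53, 4.35 and 4.82 in Lean-LF libraries 1 to 3 (17, 10 and 29 reads). Every GDM library lay under every Lean library, which 2.32% of the tested genes also showed in this direction; on the separate diets 12.1% (HFS) and 12.4% (LF) did. In the GDM-HFS library with no read, the limit that a count of 0 allows (3 reads) is a scaled value of 1.73, for counting error only, which is under all Lean values.

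Over both diets Trpv6 averaged 0.980 ± 0.856 in GDM (24 reads in all) and 4.85 ± 0.963 in Lean libraries (92 reads). The GDM mean is about what 3 reads per library would give (0.982), so no fold of the means is given. It is also under the mean of 1 needed for a test, which Trpv6 reached through its Lean libraries. The log2(scaled value + 1) difference was -1.66 ± 0.348 (SE), and -1.64 on HFS and -1.68 on LF diet. At so few reads its size depends on the added constant: -2.39 with 0.25 and -0.73 with 5, against -2.22 with edgeR's and -2.23 with DESeq2's model of the reads. The K libraries again held the 3 lowest values, 0 to 0.561. Among G libraries Trpv6 averaged 1.65 ± 0.643 in GDM (1.12 to 2.36, n = 3) and 4.85 ± 0.963 in Lean (3.59 to 6.37, n = 6), and without K the log2 difference was -1.18.

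**Figure D2:**
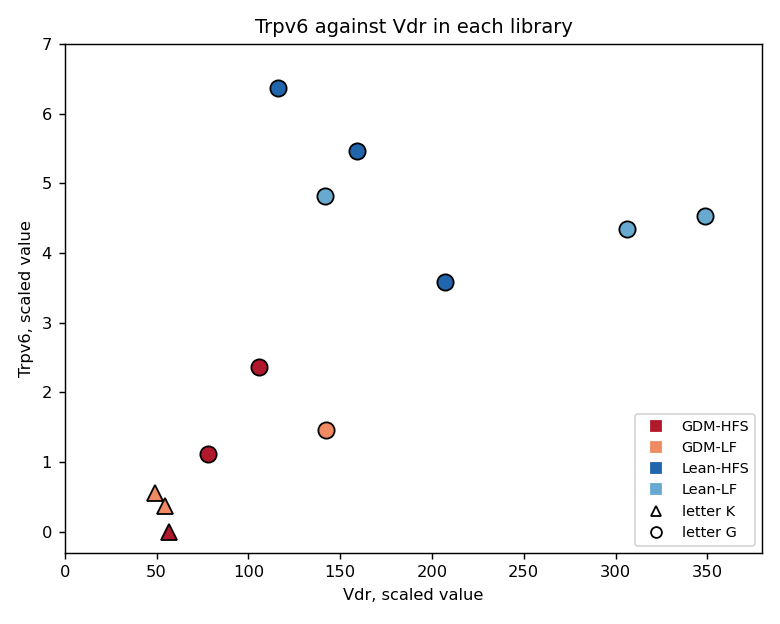
Scaled value of Trpv6 (vertical axis) against that of Vdr (horizontal axis) in each of the 12 libraries, coloured by group, with triangles for the letter K and circles for G. The 3 K libraries lie at the lower left (Vdr 49.1 to 56.5, Trpv6 0 to 0.561), and the 6 Lean libraries lie at Trpv6 values of 3.59 to 6.37 over a wide range of Vdr (116 to 349).

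Inside each kind of dam, a comparison that was not used to choose Vdr and Trpv6, the relation of Vdr to the other genes was tested in 7 pairs. Among the 6 GDM libraries the log2 values of Vdr and Trpv6 had a Pearson r of 0.796 (exact permutation p = 0.0597, two-sided, adjusted p = 0.209 over 7 relations) and a Spearman rho of 0.714 (exact permutation p = 0.136, adjusted 0.238), and r was 0.608 without the 2 libraries farthest from the median Vdr value. Nothing is read from this, since Trpv6 had 0 to 11 reads in these libraries and the 3 K libraries were the lowest in both genes. Among the 6 Lean libraries r was -0.632 (exact permutation p = 0.178, adjusted 0.338) and rho was -0.714 (exact permutation p = 0.136, adjusted 0.238), with r of -0.912 without the 2 farthest; with the values as deposited r was 0.047. The strongest of the 7 relations was with Rxra in Lean libraries, with r of 0.898 (exact permutation p = 0.0194, adjusted 0.136) and rho of 0.943 (exact permutation p = 0.0167, adjusted 0.117), and r of 0.762 without the 2 farthest. Calb1 had r of 0.614 with Vdr in Lean libraries (exact permutation p = 0.193, adjusted 0.338), which was 0.0178 without the 2 farthest, and -0.0478 in GDM libraries (exact permutation p = 0.928, adjusted 0.928). Rxra in GDM libraries had r of 0.322 and Cyp24a1 in Lean libraries r of -0.388 (exact permutation adjusted p of 0.609 and 0.599). No relation passed after adjustment. Each relation pooled the HFS and LF libraries of that kind of dam, so it carries any difference by diet.

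Rxra, the receptor's partner, on rn5 at chromosome 3, bases 11570637 to 11653959, had scaled values of 96.8, 85.8 and 153 in GDM-HFS, against 110, 84.4 and 88.8 in Lean-HFS libraries 1 to 3. It was at 50.8, 66.0 and 107 in GDM-LF, against 129, 113 and 103 in Lean-LF libraries 1 to 3. The highest of the 12 values (GDM-HFS 3) and the lowest (GDM-LF 1 and 2) were all in K libraries, and GDM and Lean libraries overlapped on both diets. Rxra did not pass the test by dam, where limma called 11.6% of the tested genes (adjusted p under 0.05): the log2 difference over both diets was -0.23 ± 0.195 (SE, adjusted p = 0.435, 95% interval -0.65 to 0.19). The difference was 0.21 on HFS diet (adjusted p = 0.774 in limma, where 0.0081% of genes were called). It was -0.68 on LF diet (adjusted p = 0.140 in limma, where 1.58% were called), and it moved both ways with the libraries used. Without the K libraries, which leaves GDM-LF 3 alone in its group, it was -0.092. Without GDM-LF 3 it was -0.97 (limma adjusted p = 0.0303). In that last fit limma called 898 genes higher on LF diet, against 105 with all libraries.

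Calb1, the calcium buffer, on rn5 at chromosome 5, bases 34217930 to 34242324, lay the other way. Its scaled value was 15.7, 27.7 and 50.2 in GDM-HFS, against 16.6, 16.3 and 9.56 in Lean-HFS libraries 1 to 3. It was 31.2, 20.2 and 30.3 in GDM-LF, against 21.3, 16.96 and 12.3 in Lean-LF libraries 1 to 3. Of the 6 GDM libraries 4 lay above every Lean library, and GDM-HFS 1 and GDM-LF 2 lay among the Lean values. The share of all tested genes with such a pattern was not counted. The means of Calb1 were 29.2 ± 11.9 in GDM and 15.5 ± 4.08 in Lean libraries (SD, n = 6 each). The log2 difference of 0.82 ± 0.283 (SE, 95% interval 0.21 to 1.43) did not pass in limma (adjusted p = 0.0726). DESeq2 gave it an adjusted p of 0.0249 in a fit that called 20.1% of genes, and without GDM-HFS 1 limma gave 0.0375. With 1 library left out, the genes that limma called higher by dam ran from 135 to 1210. On the separate diets the difference of Calb1 was 0.98 on HFS (limma adjusted p = 0.291) and 0.67 on LF (limma adjusted p = 0.302).

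Cyp24a1, the enzyme that degrades active vitamin D, on rn5 at chromosome 3, bases 174200349 to 174214785, was almost without reads. It had 0, 4 and 0 reads in GDM-HFS and 0 in each GDM-LF library, against 4, 6 and 0 in Lean-HFS and 2, 0 and 2 in Lean-LF libraries, so 7 of 12 libraries were at 0. This came to 4 reads in GDM and 14 in Lean libraries in all, with mean scaled values of 0.143 and 0.841. Both are under the group means that 3 reads per library would give, 0.982 in GDM and 1.08 in Lean libraries, so no fold is given and a difference was not detectable at this depth. With no filter on low values limma gave an adjusted p of 0.235 by dam and 0.909 by weaning diet, over 15119 genes.

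The weaning diet was not used to choose the genes, and none of the 4 tested genes passed the test by diet or for the interaction of diet and dam. Of these genes, Trpv6 reached the level for a test through its Lean libraries only. Over both dams the HFS minus LF log2 difference of Vdr was -0.28 ± 0.295 (SE, limma adjusted p = 0.914, 95% interval -0.92 to 0.35). Among offspring of Lean dams Vdr averaged 161 ± 45.4 on HFS and 266 ± 109 on LF diet, and among offspring of GDM dams 80.2 ± 24.7 on HFS and 82.0 ± 52.2 on LF diet; both pairs overlapped. The diet differences of Rxra (0.16), Trpv6 (0.13) and Calb1 (-0.09) had limma adjusted p-values of 0.929, 0.963 and 0.971. limma called 0% of all tested genes by diet, with 611 genes at an unadjusted p under 0.05, and edgeR called 0 and DESeq2 called 2.

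The interaction, the dam difference on HFS minus that on LF diet, was 0.75 ± 0.590 for Vdr (SE, limma adjusted p = 0.826, 95% interval -0.52 to 2.02). Without the K libraries it was 0.018. For Rxra the interaction was 0.88 ± 0.390 (SE, limma unadjusted p = 0.0406, adjusted p = 0.784, 95% interval 0.044 to 1.72), and without the K libraries it was 0.052. For Trpv6 and Calb1 it was 0.03 and 0.31 (limma adjusted p of 0.994 and 0.919). limma called 0% of all genes for it, with 730 at an unadjusted p under 0.05, and neither edgeR nor DESeq2 called any. The interval of Trpv6 ran from -1.47 to 1.53, so these tests do not show that the difference by dam was alike on both diets.

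The rest of the pathway was read from lists of known genes, without the 5 above. Of the 9 genes of vitamin D metabolism and transport, 1 rose and 0 fell by dam in limma, where 11.6% of all tested genes were called, 6.13% higher and 5.43% lower (756 and 670 genes, against 429 and 245 with the values as deposited). The median log2 difference was 0.23, against 0.03 over all tested genes. The gene that rose was Fdx1, the ferredoxin that passes electrons to mitochondrial cytochrome P450 enzymes, among them the activating and the degrading enzyme of vitamin D and those of steroid synthesis. Fdx1 had scaled values of 141 to 320 in GDM (median 169) and 53.9 to 132 in Lean libraries (median 95.3), with no overlap, as 2.8% of the tested genes showed in this direction, and a log2 difference of 1.12 ± 0.245 (SE, limma adjusted p = 0.0172). The activating enzyme itself, Cyp27b1, averaged 1.62 ± 1.46 in GDM and 1.66 ± 1.33 in Lean libraries, and Cyp2r1 and Cyp27a1, which carry out the activation step before it, had differences of 0.23 each (limma adjusted p of 0.621 and 0.752). Gc, the vitamin D binding protein, was high in all libraries, at 3282 ± 810 in GDM and 2853 ± 762 in Lean libraries, with a difference of 0.21 (limma adjusted p = 0.508). Cubn, which takes up that protein in kidney, had a difference of 0.73 (limma adjusted p = 0.189).

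Of the receptor's other partners and co-regulators, 10 of 12 listed genes had a tested entry. By dam 4 fell and 0 rose, where limma called 5.43% of all tested genes lower. All 10 differences were below 0, with a median of -0.46 against 0.03 over all tested genes. Ncoa1, a co-activator of nuclear receptors, had scaled values of 112 to 183 in GDM and 181 to 299 in Lean libraries, with a log2 difference of -0.70 ± 0.165 (SE, limma adjusted p = 0.0213). Smarca4, the motor subunit of the SWI/SNF chromatin remodeller, was at 447 to 759 in GDM and 664 to 1172 in Lean libraries, with a difference of -0.60 ± 0.148 (limma adjusted p = 0.0241). The other two that fell were Med1, the Mediator subunit that contacts nuclear receptors (-0.46, limma adjusted p = 0.0382), and Ncor1, a co-repressor (-0.47, limma adjusted p = 0.0472). In each of these 4 genes the lowest Lean library lay under the highest GDM library. Rxrb and Rxrg, the other retinoid X receptors, had differences of -0.02 and -0.41 (limma adjusted p of 0.936 and 0.563). The 4 that fell have transcripts of 5263 to 8260 bases, and Fdx1 has 831; with the trend on length removed, 0 of the co-regulators passed and Fdx1 still passed.

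Of the genes of calcium transport, 7 of 10 listed were tested, with a median log2 difference of -0.45 by dam. Of these 1 fell and 0 rose, where limma called 5.43% of all tested genes lower. Atp2b4, a plasma membrane pump that moves calcium out of the cell, was at 32.8 to 76.1 in GDM and 71.0 to 140 in Lean libraries, with a difference of -0.74 ± 0.178 (SE, limma adjusted p = 0.0231). On LF diet alone its difference was -1.29 (limma adjusted p = 0.0477), where 0.729% of all tested genes were called lower. This call was lost with the replicate number as a block, in edgeR, with an added constant of 5, with no filter on low values and with no mean-variance trend. It was also lost with the acinar level or Rn45s as a covariate and with the length trend removed. In each of these settings 0 genes were called lower on LF diet. The pumps Atp2b1, Atp2b2 and Atp2b3 had differences of -0.44, -0.49 and -1.01 and did not pass (limma adjusted p of 0.0599, 0.0571 and 0.0622). The sodium-calcium exchanger Slc8a1, at 1361 ± 282 in GDM and 1472 ± 266 in Lean libraries, had a difference of -0.12 (limma adjusted p = 0.567). The genes closest in kind to Trpv6 and Calb1 were too low to test: Trpv5, the renal sister channel, and Calb2, calretinin, were at 0 in 11 of 12 libraries each, and S100g, calbindin-D9k, in 7.

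None of the 14 tested genes (of 19 listed) among other receptor targets and calcium hormone genes rose or fell by dam in limma, with a median log2 difference of 0.06; 2 were at an unadjusted p under 0.05, and edgeR and DESeq2 called 0. On LF diet 12 of the 14 differences were above 0 (median 0.29). The mean log2 level of the 14 genes was 5.650 and 5.791 in the K libraries GDM-LF 1 and 2. It was 4.485 in GDM-LF 3, against 4.492 to 4.692 in Lean-LF libraries. None of the 14 was called on LF diet by limma or edgeR and 3 by DESeq2, which called 14.6% of all genes on this diet. On HFS diet 10 of 14 were below 0 (median -0.21). The largest difference over both diets, 1.499 ± 0.677 (SE, limma adjusted p = 0.152), was that of Cldn2, a tight junction protein, at 0.898 to 51.1 in GDM and 0 to 4.55 in Lean libraries; it was 0.095 on HFS and 2.90 on LF diet (limma adjusted p of 0.975 and 0.0855). Spp1, osteopontin, had 1.18 ± 0.514 (SE, limma adjusted p = 0.137), and Casr, the calcium-sensing receptor, had -0.35 (limma adjusted p = 0.509). Among 14 tested of 15 listed nuclear receptors that also pair with retinoid X receptors, 1 fell and 0 rose by dam, with a median of -0.24. limma called 5.43% of all tested genes lower by dam. The gene that fell was Thrb, a thyroid hormone receptor, at 110 to 269 in GDM and 264 to 384 in Lean libraries, with a difference of -0.75 ± 0.190 (SE, limma adjusted p = 0.0277). By weaning diet and for the interaction, 0 of the 54 tested genes of the 5 lists passed in limma, edgeR or DESeq2; at an unadjusted p under 0.05 limma had 3 of them by diet and 2 for the interaction. With the acinar level or with Rn45s as a covariate, 0 of the calls by dam in these lists remained. Over all tested genes limma then called 185 higher and 75 lower with the acinar level, and 0 and 0 with Rn45s. The loss with Rn45s is therefore not particular to these lists. The differences kept their signs: with the acinar covariate Fdx1 was at 0.87, Med1 at -0.43 and Smarca4 at -0.51, and without the K libraries they were 0.76, -0.33 and -0.48. With Rn45s they were 0.44, -0.18 and -0.19, while Atp2b4 was at -0.58 with Rn45s and at -0.59 without K.

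**Figure D3:**
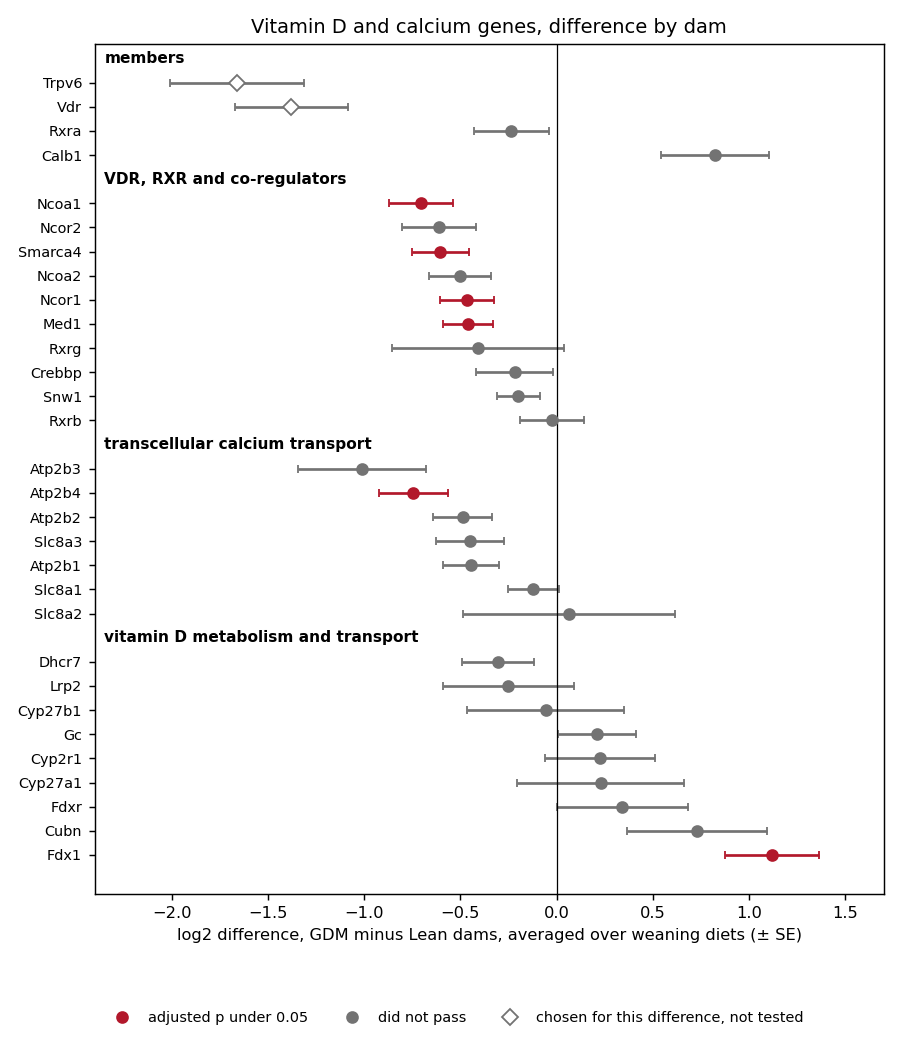
Log2 differences, GDM minus Lean dams averaged over both weaning diets, with their SE, for 4 of the 5 genes and for 3 lists of related genes; red marks an adjusted p under 0.05 in limma, grey a gene that did not pass, and open diamonds Vdr and Trpv6, which were chosen for this difference and not tested. All 10 partners and co-regulators lie below 0, Fdx1 lies at 1.12, and Calb1 lies on the opposite side from Vdr and Trpv6.

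**Figure D4:**
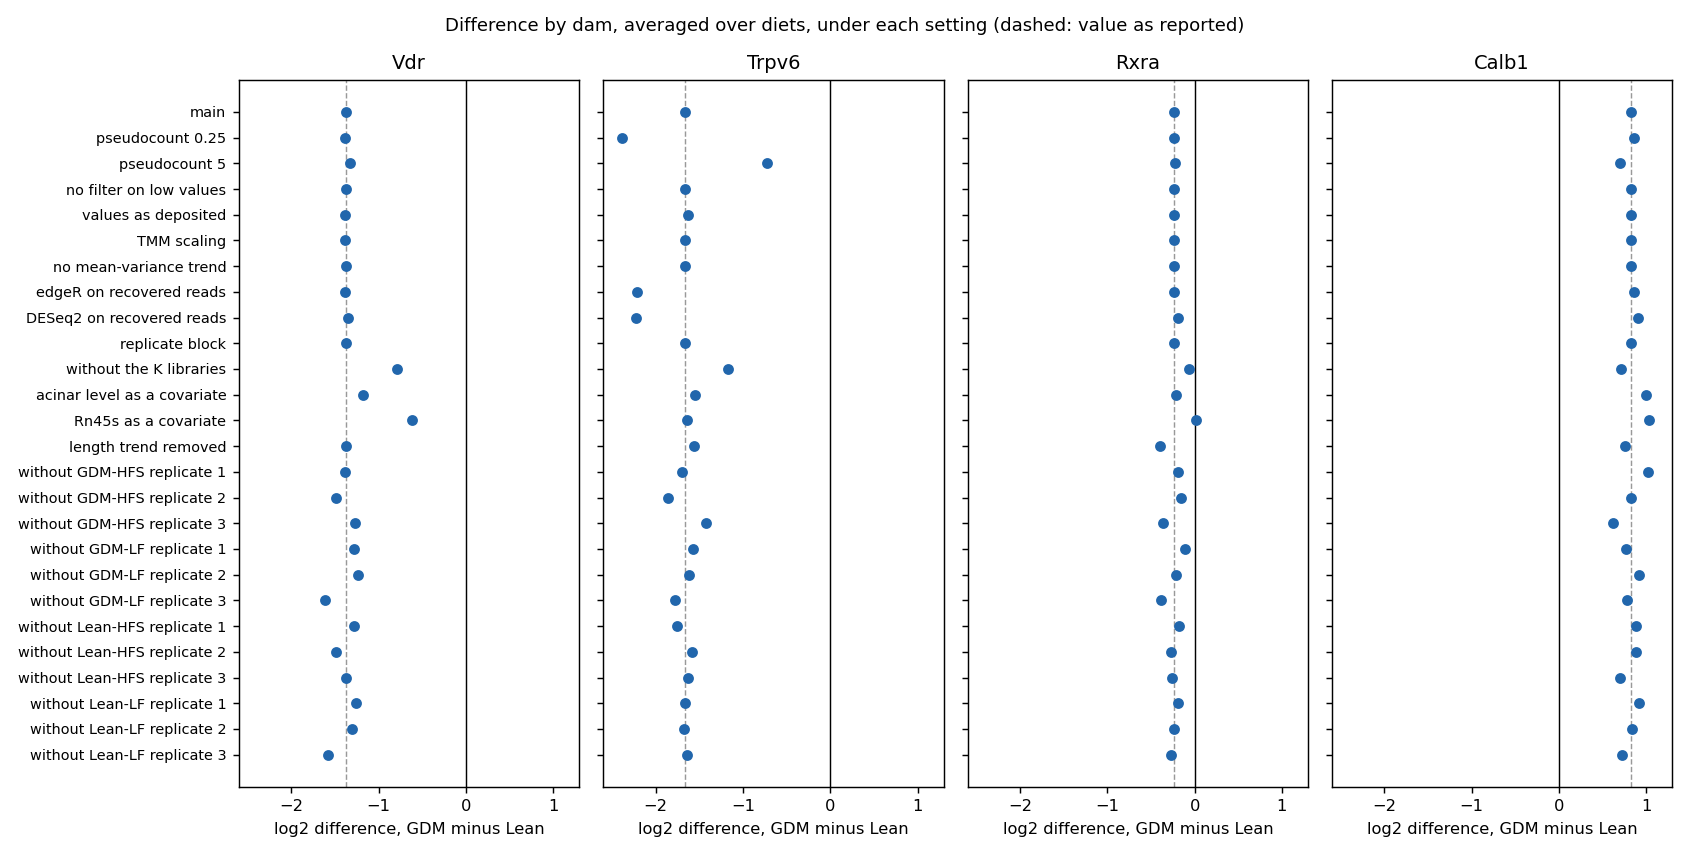
Log2 difference by dam (GDM minus Lean, averaged over weaning diets) of Vdr, Trpv6, Rxra and Calb1 as reported (dashed line) and under each of 25 other settings. Vdr runs from -1.62 to -0.62 and Trpv6 from -2.39 to -0.73, all below 0, Calb1 from 0.62 to 1.04, all above 0, and Rxra from -0.39 to 0.01. Vdr and Trpv6 were chosen for lying below 0, and the settings reuse the same libraries.

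The genes whose pattern over the 12 libraries was most like that of Vdr were ranked by Pearson r of log2 values over 11975 genes, as a description that the dam difference enters. They were Hdac5, a histone deacetylase (0.977), Fam222a (0.966), Dnm2, a dynamin of membrane scission (0.965), Mon1b (0.964) and Lrrc8d, a subunit of volume-regulated anion channels (0.951). Like Vdr, all 5 had their highest GDM value in GDM-LF 3 and their lowest in GDM-LF 1 or 2, which largely follows from their choice by r. Hdac5 was at 102 to 173 in GDM and 149 to 240 in Lean libraries, a narrower span than that of Vdr. For Trpv6 the most alike were Gpr75 (0.943), Cabp1, a calcium-binding protein (0.934), Apba1 (0.925), Ttc17 (0.923) and Usp8, a deubiquitinase (0.915). Gpr75 was at 7.30 to 14.6 in GDM and 18.7 to 22.0 in Lean libraries. These did not overlap, as 2.32% of the tested genes showed in this direction. Apba1 and Ttc17 did not overlap by dam either, while Cabp1 and Usp8 did. All 5 were picked for likeness to Trpv6, which itself did not overlap by dam. Trpv6 ranked 776 among genes like Vdr, at r of 0.792, and Vdr ranked 216 among genes like Trpv6, while Calb1 had r of -0.432 with Vdr and -0.754 with Trpv6. These values carry the difference by dam, and within Lean libraries the r of Calb1 with Vdr was positive, as given above.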

How the data were processed

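Islet RNA of 12 libraries was sequenced. Groups and replicate numbers came from the titles. Per the labels' protocols, collagenase digestion and picking by hand gave the islets, ribosomal RNA was removed with Ribo-Zero and libraries were made with a NEBNext Ultra II Directional kit. STAR 2.5.1b, HOMER 4.9 and DESeq2 are named in the submitters' processing notes. Per the file headers, exon reads were summed per gene on rn5, on both strands, so reads of overlapping or antisense genes cannot be told apart. The deposited values form a signal in proportion to depth, not divided by length, although the header names FPKM: 100% of values of up to 1000 reads were whole multiples of 1 read (tolerance 0.1 read), and reads were recovered by that step.

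Libraries were scaled by the median ratio over 11337 genes above 0 in all libraries (factors 0.827 to 1.27). The 12339 genes that averaged a scaled value of 1 or more were tested with limma 3.58.1 (R 4.3.3, mean-variance trend) on log2(scaled value + 1). All 12 libraries entered 1 fit with a mean for each group and Benjamini-Hochberg adjustment within each of 5 contrasts (by dam, over both diets and on each, by diet, and the interaction), at a threshold of 0.05. This scale understates differences of low genes. edgeR 4.0.16 and DESeq2 1.42.0 were run on recovered reads, 3 ribosomal RNA entries left out, as alternatives, beside other constants, filters, scalings, covariates and each library left out. Correlations used exact permutation tests over 6 libraries. Named are the 5 genes, listed genes past the threshold (at most 8 per list and contrast) and the 5 most like Vdr and Trpv6 without provisional symbols; other listed genes were named after their values were seen. The 5 genes and all lists were chosen with earlier results of these data known. The design had assumed FPKM, and its test on the log scale was kept.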

Additional observations from a re-analysis of the deposited data

How the results depend on the processing

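All 25 other settings kept Vdr and Trpv6 lower in GDM over both diets and Calb1 higher. Vdr and Trpv6 were chosen for being lower and the settings reuse the same libraries, so their kept sign adds no support. By dam over both diets, Vdr was -0.62 with Rn45s as a covariate, against -1.38 as reported (0.24 on HFS diet), and Rxra was then 0.013; the cause was not tested. Without the K libraries Vdr was -0.80 on LF diet, Rxra -0.040 on HFS diet and -0.26 by weaning diet, and the Calb1 interaction -0.27. With constants of 0.25 and 5, by construction, Trpv6 was -2.39 and -0.73 over both diets, -2.45 and -0.73 on HFS and -2.33 and -0.73 on LF diet, and its interaction was -0.11 with 0.25. edgeR and DESeq2 gave Trpv6 -2.22 and -2.23 over both diets and -2.48 and -2.49 on LF diet, and DESeq2 gave Calb1 0.91 (past the threshold). Calb1 by weaning diet was 0.033 with the acinar covariate.

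With 1 library left out, Calb1 ran from 0.62 to 1.02 by dam (past the threshold without GDM-HFS 1), -0.29 to 0.11 by diet and -0.10 to 0.71 for the interaction; Trpv6 ran from -0.071 to 0.37 by diet and -0.37 to 0.50 for the interaction; and Rxra ran from -0.040 to 0.37 on HFS and -0.97 to -0.44 on LF diet (past the threshold without GDM-LF 3).

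Of the lists by dam, the 4 co-regulators that fell became 6 in edgeR and in DESeq2, 2 with the values as deposited, 1 with no mean-variance trend, and 0 without K, with the acinar or Rn45s covariate or with the length trend removed. The single fall in calcium transport became 2 in edgeR and 4 in DESeq2, and 0 in those last 4 settings. The single fall among other nuclear receptors became 2 in DESeq2, and 0 in those 4 and also with the values as deposited and no trend. The single rise in metabolism became 0 without K and with either covariate. With 1 library left out these counts ran from 0 to 6, 0 to 5, 0 to 3 and 0 to 1, and rises among the other targets from 0 to 3.

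Over all genes, the 756 higher and 670 lower calls by dam became 0 and 0 without K and with Rn45s, 185 and 75 with the acinar covariate, 234 and 318 with length removed, 429 and 245 as deposited, 413 and 258 with no trend, 671 and 816 in edgeR, and 1173 and 1111 in DESeq2; with 1 library left out they ran from 135 to 1210 and from 48 to 1261, lowest without Lean-LF 2 and highest without Lean-LF 3. On LF diet the 105 and 90 calls ran from 0 to 920 and from 0 to 889, and on HFS diet the 1 and 0 calls from 0 to 208 and from 0 to 60. The call of Atp2b4 on LF diet was lost where 0 genes fell there, as with a constant of 5, no filter, no trend and edgeR.

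Replicate numbers did not pair the libraries: same-numbered libraries of different groups had correlations of deviations of -0.50 to 0.20, with 5 of 18 over 0.1. With the replicate number as a block, the calls on LF diet became 0 and 0, which ended the call of Atp2b4 there. No call of Rxra and Calb1 by dam, or of Vdr, Rxra, Trpv6 and Calb1 by diet and for the interaction, changed; Vdr by dam was -1.38. Depth limits Trpv6 and Cyp24a1, with 116 and 18 reads in all.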
